A study of Mus musculus with 9 samples.

Results

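The 39 Hox genes of the mouse HoxA, HoxB, HoxC and HoxD clusters were examined in cultured mouse embryonic fibroblasts (MEFs), connective tissue cells that are grown out of embryos. The genes were chosen by symbol alone, without any measured value, from the 24341 genes listed for each sample. The HoxA cluster holds 11 of them on chr6:52155367-52260880, and the HoxB cluster 10 on chr11:96194316-96368254. The HoxC cluster holds 9 on chr15:102921131-103036856 and the HoxD cluster 9 on chr2:74668225-74765142. These positions are from RefSeq on GRCm38.p6, the assembly that is also called mm10. RNA-Seq counts of 9 samples were used, 3 labelled WT, 3 labelled Atm-/- and 3 labelled Sirt6-/-, all of strain C57BL/6 and grown in DMEM with serum. The study sequenced them to ask how the DNA damage kinase ATM and the deacylase SIRT6 act on metabolic gene expression. No sample carries a treatment, an embryonic stage or a body region in its labels. The labels name P53-/- and Atm-/-P53-/- mice among the sources of cells but do not tie them to single samples. Per the study's methods, immortalized Atm-/-; p53-/- MEFs and Sirt6-/- MEFs came from separate laboratories, and primary MEFs were also used. The origin of the sequenced cells is not given, so genotype, source of the line, immortalization and the part of the embryo that was taken cannot be told apart in any difference below. Nothing says whether the 3 samples of a genotype came from separate embryos or cultures, and p-values then measure only the spread between these samples, which may be technical.

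Hox proteins are homeodomain transcription factors that give cells along the body axis and the limbs their regional identity. Within each cluster the genes sit in order of their number, and genes of low number are used towards the head and early, whereas genes of high number are used towards the tail, in the distal limb and late. Genes with the same number in different clusters form a paralog group and bind similar DNA. Groups 1 to 8 are called anterior and central here, and groups 9 to 13 posterior. Hox proteins bind DNA together with TALE homeodomain cofactors of the Pbx, Meis and Pknox families. Silent stretches of a cluster are held under Polycomb repression, and trithorax proteins keep active stretches open. Fibroblasts retain in culture the Hox pattern of the site from which they came.

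Each sample held between 32187040 and 33837949 counted reads, and 3 reads corresponded to 0.0887 to 0.0932 CPM (reads scaled to a common library size), the limit that a count of 0 allows for counting error alone. Sirt6 had 487, 402 and 472 reads in WT and 4, 5 and 7 in Sirt6-/-. Atm had 1536, 1617 and 1627 reads in WT and 3768, 3564 and 3443 in the libraries labelled Atm-/-. Atm RNA thus went against that label, although a count over the whole gene does not show whether an altered transcript was counted, and the group is called the libraries labelled Atm-/- below. Trp53, which encodes p53, had 7108, 7102 and 6563 reads in WT, 806, 946 and 928 in the libraries labelled Atm-/- and 9081, 9127 and 9218 in Sirt6-/-. Of 12 fibroblast markers, 11 were expressed in WT, 11 in the libraries labelled Atm-/- and 10 in Sirt6-/-, where Thy1 had 1, 33 and 12 reads. Their summed level differed between the genotypes, at 6586 to 7133 in WT, 2666 to 2713 labelled Atm-/- and 4862 to 4940 in Sirt6-/-. Of the markers of blood, endothelium and skeletal muscle, Ptprc, Pecam1 and Myod1 had at most 10 reads in any library, whereas Cd68 and Kdr had more and are given with the other cell types below. The level of a gene is its read count scaled by its listed length and by the normalized library size, as an RPKM value is. A gene is called expressed where its level was at least 1 in all 3 samples of a genotype, and silent where it had at most 3 reads in each of them.

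RefSeq promoter windows on GRCm38.p6 were at hand for 22 of the 39 genes. The 250 bases before the start site are shown for 5 genes on which the results turn: Hoxa2, which was high in Sirt6-/-, Hoxd8 and Hoxd9, the most abundant HoxD genes of WT, and Hoxa11 and Hoxd13, which had reads almost solely in the libraries labelled Atm-/-. They read 5′ to 3′ on the strand of the gene, and capitals mark CG dinucleotides, the sites of DNA methylation that are dense in CpG island promoters.
Hoxa2 (chr6:52164832-52165081, minus strand): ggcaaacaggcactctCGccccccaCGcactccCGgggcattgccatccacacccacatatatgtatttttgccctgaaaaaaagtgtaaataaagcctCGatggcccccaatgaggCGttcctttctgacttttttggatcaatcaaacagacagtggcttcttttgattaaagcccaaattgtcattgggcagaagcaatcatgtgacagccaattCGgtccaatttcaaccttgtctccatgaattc
Hoxa11 (chr6:52245811-52246060, minus strand): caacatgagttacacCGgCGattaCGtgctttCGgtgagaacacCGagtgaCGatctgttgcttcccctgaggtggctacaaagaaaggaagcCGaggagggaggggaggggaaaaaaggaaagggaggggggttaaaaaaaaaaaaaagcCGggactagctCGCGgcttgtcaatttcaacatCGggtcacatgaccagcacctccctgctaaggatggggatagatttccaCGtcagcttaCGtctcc
Hoxd8 (chr2:74704365-74704614, plus strand): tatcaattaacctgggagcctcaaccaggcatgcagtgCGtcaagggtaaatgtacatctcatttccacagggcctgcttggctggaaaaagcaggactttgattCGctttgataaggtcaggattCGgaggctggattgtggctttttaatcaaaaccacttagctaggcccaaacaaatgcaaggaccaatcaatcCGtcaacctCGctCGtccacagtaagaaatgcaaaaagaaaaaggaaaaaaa
Hoxd9 (chr2:74697513-74697762, plus strand): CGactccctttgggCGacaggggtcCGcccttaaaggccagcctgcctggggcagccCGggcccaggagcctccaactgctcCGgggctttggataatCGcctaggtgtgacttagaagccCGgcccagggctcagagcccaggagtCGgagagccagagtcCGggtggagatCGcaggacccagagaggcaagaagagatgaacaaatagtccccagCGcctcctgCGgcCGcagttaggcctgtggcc
Hoxd13 (chr2:74667975-74668224, plus strand): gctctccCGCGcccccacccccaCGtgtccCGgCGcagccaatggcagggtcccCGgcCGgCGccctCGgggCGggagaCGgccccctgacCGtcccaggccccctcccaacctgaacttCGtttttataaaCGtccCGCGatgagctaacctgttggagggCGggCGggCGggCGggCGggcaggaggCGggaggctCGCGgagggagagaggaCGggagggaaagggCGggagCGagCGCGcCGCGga
The letters CG were found 6 times in the Hoxa2 window, 13 times in that of Hoxa11, 6 times in that of Hoxd8, 13 times in that of Hoxd9 and 31 times in that of Hoxd13. Over the 24 Hox windows, since Hoxa10 and Hoxd11 have more than one start, the count ran from 2 to 35 with a median of 12.5, beside a median of 6 over all 32851 windows in the table. At least 31 CG were present in 5.19% of all windows and at least 13 in 31.5%. The letters TGATNNAT, a site for a Hox and Pbx protein pair, were searched on both strands and were present in 4 of the 24 Hox windows (Hoxa2, Hoxb1, Hoxb8 and 1 of the Hoxd11 windows) and in 7.68% of all windows. Neither count measures methylation or binding in these cells.

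Hox RNA was abundant in all 3 genotypes, but it came from different clusters and from different ends of them. The summed level of all 39 genes was 79.6 ± 1.15 (SD, n = 3) in WT, 97.0 ± 4.44 in the libraries labelled Atm-/- and 69.7 ± 0.761 in Sirt6-/-. Posterior genes made up 23.5%, 21.8% and 23.8% of this sum in the WT samples, 62.0%, 61.9% and 60.1% in the samples labelled Atm-/-, and 4.60%, 5.39% and 4.35% in Sirt6-/-. The 3 genotypes did not overlap in this share. Each difference between 2 genotypes had a two-sided exact permutation p of 0.1, the smallest that 3 samples against 3 allow, and 0.112 after Benjamini-Hochberg adjustment over 18 tests of sums and shares.

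The HoxD cluster was the largest source of Hox RNA in WT, with summed levels of 36.4, 33.6 and 39.9, and fell to 5.46, 5.45 and 4.85 labelled Atm-/- and to 8.37, 8.74 and 7.32 in Sirt6-/-. HoxC gave 7.63, 6.30 and 7.94 in WT, 32.4 ± 0.734 (mean ± SD) labelled Atm-/-, from 31.98 to 33.3, and only 0.103, 0.110 and 0.145 in Sirt6-/-, where it was all but silent. HoxA rose from 17.9, 18.4 and 17.8 in WT to 36.8, 38.2 and 34.2 labelled Atm-/- and to 39.7, 35.8 and 38.7 in Sirt6-/-. HoxB summed to 15.0 to 19.98 in WT (mean 17.6 ± 2.51). It reached 22.6, 24.6 and 21.6 labelled Atm-/-, and 22.2, 24.2 and 23.7 in Sirt6-/-. For both HoxA and HoxB the samples labelled Atm-/- overlapped those of Sirt6-/- (exact permutation p = 0.4 and p = 0.8), although the genes behind the sums differed. All other differences of a cluster between 2 genotypes were without overlap at the smallest p of 0.1. For HoxB the 1.30-fold excess of the libraries labelled Atm-/- over WT depended on division by gene length: without it the log2 ratio was 0.03 in place of 0.38. The HoxC excess of the libraries labelled Atm-/- over WT was smaller without it, at 1.30 in place of 2.15.

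**Figure D1:**
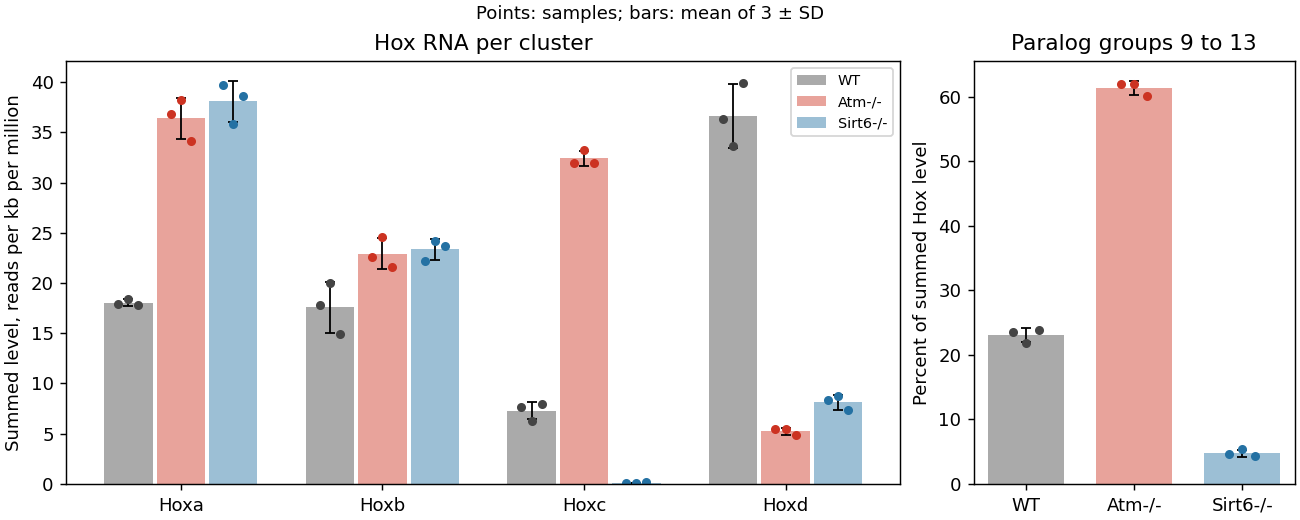
Summed Hox level per cluster (left, on the scale of RPKM) and the percent of it from paralog groups 9 to 13 (right), with points for the 3 samples of each genotype and bars for their mean ± SD. HoxD led in WT, HoxC was high in the samples labelled Atm-/- and near 0 in Sirt6-/-, and the posterior share was 23.0%, 61.3% and 4.78% on average.

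By the level rule, 14 of the 39 genes were expressed in WT, 20 in the libraries labelled Atm-/- and 13 in Sirt6-/-, while 15, 4 and 15 were silent. A shared core of 7 genes was expressed in all 3 genotypes, and all were anterior or central, among them Hoxa3, Hoxa5, Hoxa7, Hoxb2, Hoxb3 and Hoxb4. Hoxd3 and Hoxd4 passed in WT alone. Hoxa9, Hoxa11, Hoxb7, Hoxb9, Hoxc10, Hoxc11, Hoxc12 and Hoxd13 passed in the libraries labelled Atm-/- alone, and no gene passed in Sirt6-/- alone. Of the 16 posterior genes, 3 were expressed in WT, 9 labelled Atm-/- and 1 in Sirt6-/-. Expression was not reached in any genotype by 14 genes, among them Hoxb1, Hoxb13, Hoxd1 and Hoxd12, which had at most 4 reads in every sample.

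**Figure D2:**
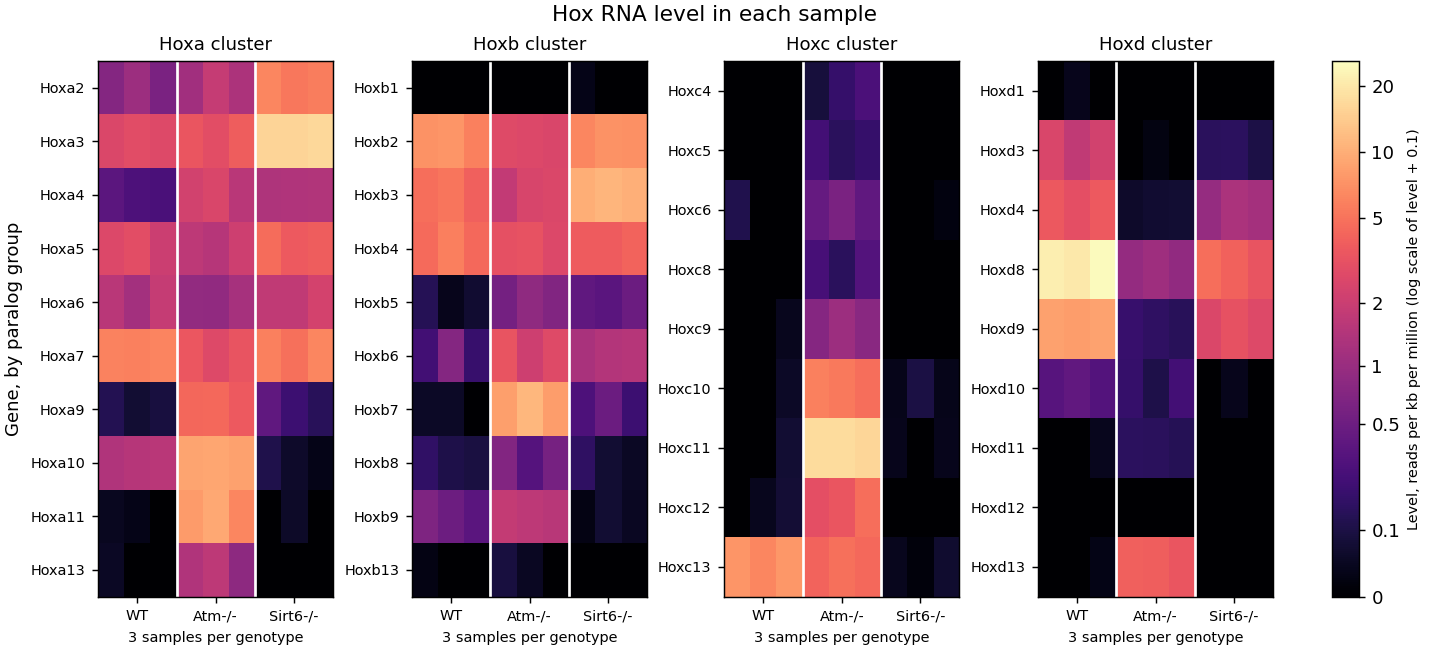
Level of 38 Hox genes (rows, ordered by paralog group within the 4 clusters) in each of the 9 samples (columns, 3 per genotype), coloured on a log scale of the level + 0.1. The lower HoxC and HoxA rows are bright only in the samples labelled Atm-/-, except Hoxc13, which is bright in WT too, and Hoxa10, which is moderate there, and the middle HoxD rows are brightest in WT.

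Gene by gene, the genotypes were compared with edgeR's quasi-likelihood test over all genes, and a gene was called at a Benjamini-Hochberg adjusted p under 0.05. The background was high: 68.4% of the 13283 tested genes were called between the libraries labelled Atm-/- and WT, 76.6% of 13206 between Sirt6-/- and WT, and 75.8% of 13460 between the libraries labelled Atm-/- and Sirt6-/-. The samples of the 2 genotypes did not overlap at 72.7%, 79.0% and 78.1% of all tested genes in these comparisons. A lack of overlap at a Hox gene is therefore common in these data. Of 34 Hox genes tested in the first comparison, 20 were called higher (34.7% of all tested genes) and 11 lower (33.6%) in the libraries labelled Atm-/-. Hoxa3, Hoxa6 and Hoxd10 were not called, and Hoxb1, Hoxb13, Hoxc4, Hoxd1 and Hoxd12 had too few reads for a test. Of 21 tested between Sirt6-/- and WT, 8 were called higher (39.2% of all) and 9 lower (37.4%), and 18 were not tested. Hoxa6, Hoxa7 and Hoxb2 were among the 4 that were tested there and not called. Between the libraries labelled Atm-/- and Sirt6-/-, 20 of 32 tested Hox genes were higher (38.0% of all) and 12 lower (37.8%). Many of these genes entered the test through a single genotype. In every sample of the other, 15 of the 34, 5 of the 21 and 15 of the 32 were under the filter. Their direction followed from the filter, so their count, median and adjusted p carry no weight of their own. For the libraries labelled Atm-/- against WT these were Hoxa11, Hoxa13, Hoxb5, Hoxb7, Hoxc5, Hoxc6, Hoxc8 to Hoxc12, Hoxd3, Hoxd4, Hoxd11 and Hoxd13. For Sirt6-/- against WT they were Hoxa10, Hoxb5, Hoxb9, Hoxc13 and Hoxd10. For all tested Hox genes the median log2 fold change was 2.34, 0.00 and 3.30 in the 3 comparisons, beside 0.02, 0.02 and 0.00 for all genes. Both comparisons with WT use the same WT samples. Scaling by library totals in place of TMM moved the median of all genes from 0.02 to 0.18 in the libraries labelled Atm-/- against WT, and the share of higher calls over all genes from 50.8% to 64.9%.

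**Figure D3:**
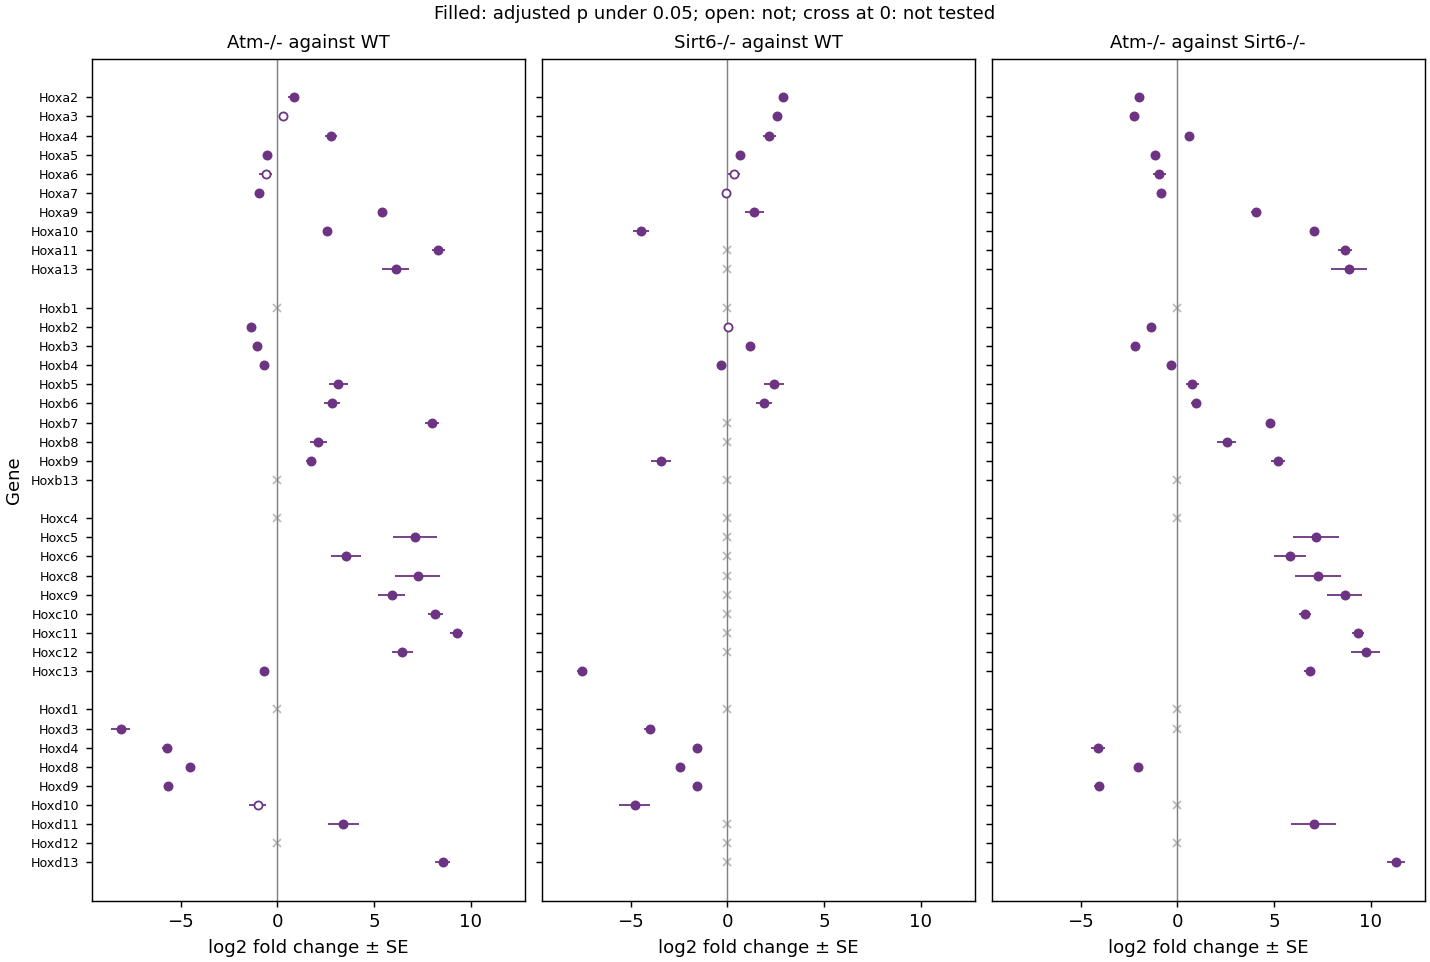
Log2 fold change ± SE of 38 Hox genes in the 3 comparisons (edgeR quasi-likelihood), ordered by cluster and paralog group. Filled points have an adjusted p under 0.05, open points do not, and crosses at 0 mark genes without a test. Points to the right of 0 are higher in the first genotype, and HoxC lies far to the right wherever the libraries labelled Atm-/- come first, apart from Hoxc13 against WT.

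In the HoxA cluster the Sirt6-/- cells were high at the anterior end. Hoxa2, which patterns the hindbrain and the second pharyngeal arch, had 41, 58 and 35 reads in WT, 69, 117 and 80 labelled Atm-/-, and 366, 306 and 333 in Sirt6-/-. Hoxa3, which is needed for thymus, parathyroid and neck structures, had 209, 230 and 217 reads in WT, 297, 262 and 327 labelled Atm-/-, and 1324, 1305 and 1400 in Sirt6-/-. All Sirt6-/- samples stood above all others at both genes, with log2 fold changes over WT of 2.85 ± 0.20 (SE, adjusted p = 5.45e-09, edgeR) and 2.56 ± 0.09 (adjusted p = 1.26e-12). With a mean level of 16.1, Hoxa3 was the most abundant Hox RNA of Sirt6-/- and made up 23.1% of the Hox sum. Against WT, Hoxa3 of the libraries labelled Atm-/- did not overlap but was not called (log2 fold change 0.30 ± 0.14, adjusted p = 0.0695, edgeR), although it was called with all 9 samples in one fit (adjusted p = 0.0175, edgeR), with library totals (0.00799) and without labelled Atm-/- replicate 2 (0.0327). Hoxa2 of the libraries labelled Atm-/- was called against WT (0.85 ± 0.29, adjusted p = 0.0180, edgeR), but not without labelled Atm-/- replicate 2 (0.62, adjusted p = 0.117) or without WT replicate 3 (0.70, adjusted p = 0.0677).

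Hoxa7, a central gene of the trunk, had 376, 358 and 383 reads in WT, 235, 184 and 218 labelled Atm-/-, and 374, 307 and 406 in Sirt6-/-. It was lower in the libraries labelled Atm-/- than in WT, by log2 -0.95 ± 0.13 (adjusted p = 1.6e-05, edgeR), and was not called between Sirt6-/- and WT. Hoxa4 had 18, 14 and 13 reads in WT, 119, 134 and 82 labelled Atm-/-, and 68, 69 and 73 in Sirt6-/-, and was thus lowest in WT without overlap. It was called higher over WT in both (2.75 ± 0.31 and 2.16 ± 0.32). Hoxa5, which acts in lung and axial skeleton, had 159, 175 and 123 reads in WT, 108, 100 and 135 labelled Atm-/-, and 280, 219 and 236 in Sirt6-/-. The WT and labelled Atm-/- ranges of Hoxa5 overlapped. It was lower labelled Atm-/- than in WT by -0.55 ± 0.20 (adjusted p = 0.0248, edgeR) and higher in Sirt6-/- by 0.63 ± 0.17 (adjusted p = 0.00381). The former call was lost when labelled Atm-/- replicate 1 or 2 or WT replicate 1 or 2 was left out (edgeR adjusted p of at least 0.0597), and with library totals (0.0983). Hoxa6 had 22 to 54 reads over the 9 samples, and its ranges overlapped between WT and each mutant.

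Posterior HoxA RNA was most abundant in the libraries labelled Atm-/-. Hoxa9, a regulator of blood progenitors and of the limb stylopod, had 13, 7 and 9 reads in WT, 484, 498 and 392 labelled Atm-/-, and 42, 22 and 15 in Sirt6-/-. For Hoxa10, which patterns the uterus and the limb, 97, 103 and 109 reads were counted in WT, 671, 700 and 632 labelled Atm-/-, and 8, 4 and 2 in Sirt6-/-. Hoxa11, a zeugopod gene of the limb, had 3, 2 and 0 reads in WT, 634, 744 and 489 labelled Atm-/-, and 0, 4 and 0 in Sirt6-/-. The samples labelled Atm-/- stood far above the rest at each of the 3 genes, and Hoxa10 alone was also expressed in WT. Log2 fold changes over WT were 5.41 ± 0.22 for Hoxa9, 2.56 ± 0.12 for Hoxa10 and 8.31 ± 0.33 for Hoxa11 (adjusted p of at most 1.1e-10, edgeR). Hoxa11 was under the filter in every WT sample, which set its direction. The value of Hoxa11 was 8.98 without WT replicate 1 and 7.31 at the lowest over the alternative settings of the fit. In Sirt6-/-, Hoxa10 was lower than in WT by -4.48 ± 0.40 (adjusted p = 1.2e-07, edgeR, and -5.10 without Sirt6-/- replicate 1). Hoxa9 was called higher in Sirt6-/- than in WT (1.39 ± 0.50, adjusted p = 0.0216, edgeR), at mean levels of 0.250 and 0.0947, but not without Sirt6-/- replicate 1 (0.88, adjusted p = 0.171), WT replicate 2 (0.0674) or WT replicate 3 (0.0637). Hoxa13, the gene of digits and genital tubercle, had 64, 78 and 38 reads labelled Atm-/-, against 2, 0 and 0 in WT and 0 in all of Sirt6-/-. Summed over samples, this was a ratio of 81.8 to WT (95% counting interval 22.3 to 681) and at least 57.2-fold higher than in Sirt6-/-, taking 3 reads over the group as the floor. Both WT reads of Hoxa13 were in WT replicate 1, without which the fitted log2 fold change was 8.85 in place of 6.12. Over the alternative settings of the fit the lowest value of Hoxa13 was 4.45.

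**Figure D4:**
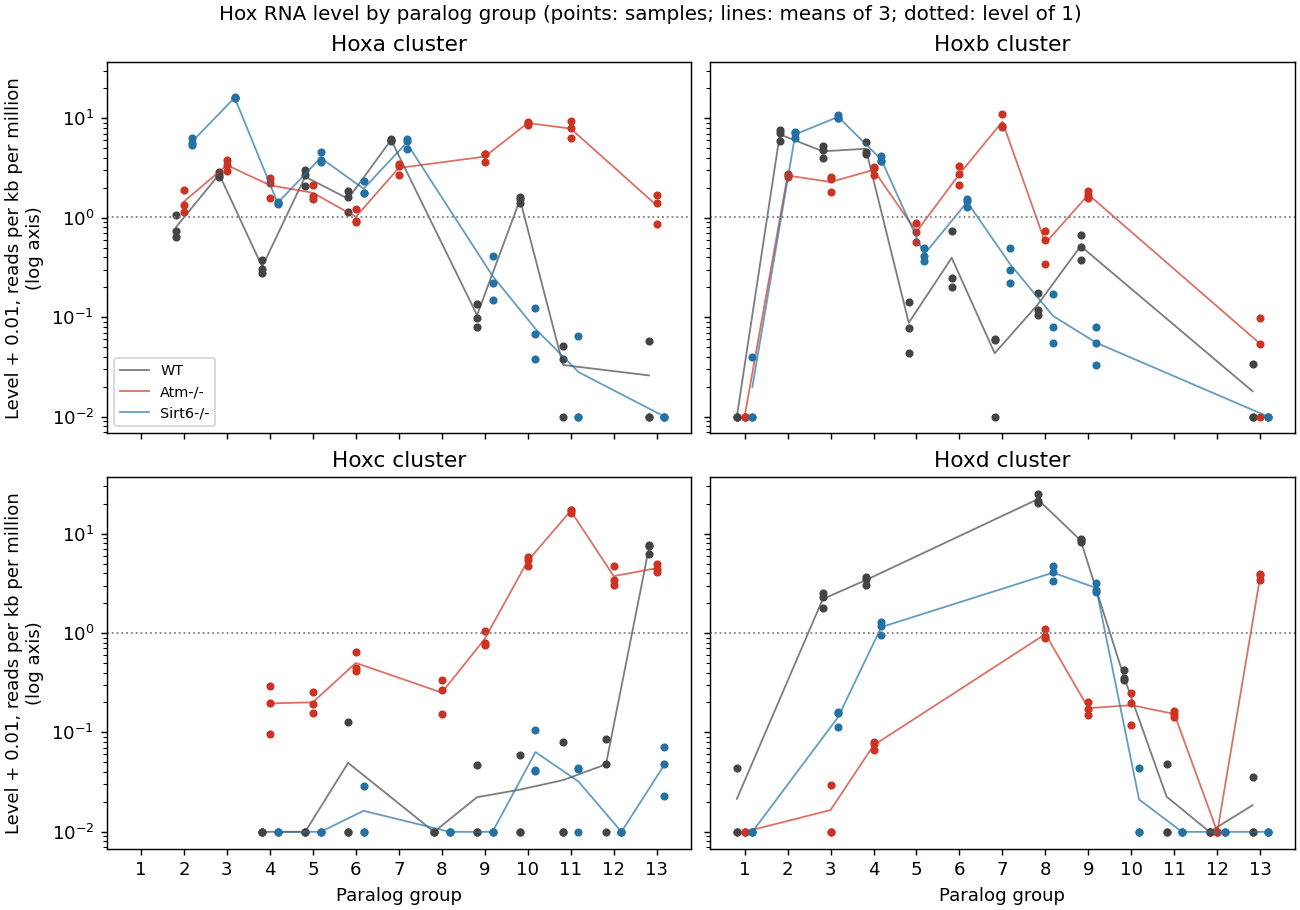
Level of 38 Hox genes (log axis, level + 0.01) against paralog group in the 4 clusters, with points for the 3 samples and lines for the genotype means. In HoxA and HoxB the Sirt6-/- line drops after group 7 and group 6, while that of the libraries labelled Atm-/- stays above a level of 0.5 up to group 13 in HoxA and from group 2 to group 9 in HoxB. In HoxD the order of genotypes at groups 8 and 9 turns over at group 13.

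HoxB RNA in WT and Sirt6-/- came from its anterior genes. Hoxb2 and Hoxb3 act in the hindbrain. Hoxb2 had 373, 385 and 302 reads in WT, 155, 152 and 140 labelled Atm-/-, and 337, 381 and 385 in Sirt6-/-. Hoxb3 had 505, 538 and 413 reads in WT, 206, 284 and 290 labelled Atm-/-, and 1081, 1162 and 1119 in Sirt6-/-. The libraries labelled Atm-/- were lowest at both, and Sirt6-/- was highest at Hoxb3 but overlapped WT at Hoxb2. Against WT, Hoxb3 was lower in the libraries labelled Atm-/- (-1.04 ± 0.15, adjusted p = 2.3e-05, edgeR) and higher in Sirt6-/- (1.15 ± 0.10, adjusted p = 5.3e-08). Hoxb2 was lower labelled Atm-/- (-1.38 ± 0.14, adjusted p = 7.1e-07, edgeR), and in Sirt6-/- it differed from WT by 0.00 ± 0.12. Hoxb4, a factor that expands blood stem cells, had 373, 467 and 356 reads in WT, 278, 293 and 230 labelled Atm-/-, and 307, 308 and 353 in Sirt6-/-. It was called lower in both (-0.72 ± 0.14 and -0.36 ± 0.13), but the Sirt6-/- call (adjusted p = 0.0204, edgeR) was lost without Sirt6-/- replicate 1 (0.0682) or 2 (0.0645), without WT replicate 2 (0.0972) and with library totals (0.0697).

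Central and posterior HoxB genes rose in the libraries labelled Atm-/-. Hoxb7, a central gene used in the trunk, had 2, 2 and 0 reads in WT, 371, 495 and 351 labelled Atm-/-, and 12, 20 and 9 in Sirt6-/-. Its mean level of 9.24 labelled Atm-/- was the second highest of that genotype, and 40.2% of its HoxB sum. Hoxb6 had 10, 30 and 8 reads in WT, 153, 98 and 124 labelled Atm-/-, and 55, 63 and 68 in Sirt6-/-. Hoxb9, a posterior gene of the thoracic skeleton and mammary gland, had 57, 42 and 31 reads in WT, 172, 160 and 143 labelled Atm-/-, and 2, 6 and 4 in Sirt6-/-. None of these ranges overlapped, and the samples labelled Atm-/- were highest at each gene. Log2 fold changes of the libraries labelled Atm-/- over WT were 7.99 ± 0.35 for Hoxb7, 2.82 ± 0.39 for Hoxb6 (3.65 without WT replicate 2) and 1.73 ± 0.24 for Hoxb9, all with an adjusted p of at most 1.6e-05 (edgeR). Of these, Hoxb7 was under the filter in every WT sample, which set its direction. In Sirt6-/-, Hoxb6 was higher than in WT (1.89 ± 0.43, adjusted p = 0.00107, edgeR, and 2.71 without WT replicate 2) and Hoxb9 lower (-3.45 ± 0.50, adjusted p = 2.0e-05). Hoxb5 and Hoxb8 did not reach a level of 1 in any genotype. Hoxb5 was higher than in WT both in the libraries labelled Atm-/- and in Sirt6-/- (3.15 ± 0.49 and 2.39 ± 0.53, and 3.76 and 2.99 without WT replicate 1), and Hoxb8 was higher labelled Atm-/- than in WT (2.12 ± 0.43, adjusted p = 0.000466, edgeR).

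The HoxC cluster was used in different ways by the 3 genotypes. WT cells had RNA of its last gene, Hoxc13, which acts in hair and nail formation, with 583, 477 and 591 reads and 98.3% of the HoxC level, while 7 of the other 8 genes were silent. The libraries labelled Atm-/- had 348, 416 and 366 reads of Hoxc13 and Sirt6-/- had 3, 1 and 5. Hoxc13 was thus shared by WT and the libraries labelled Atm-/-, somewhat lower in the latter (-0.68 ± 0.11, adjusted p = 9.2e-05, edgeR), and lower in Sirt6-/- by -7.51 ± 0.26 (adjusted p = 2.2e-12). Hoxc11, a gene of the hindlimb and the lumbosacral region, had 546, 559 and 499 reads labelled Atm-/-, against 0, 0 and 2 in WT and 1, 0 and 1 in Sirt6-/-. Its mean level of 16.9 made it the most abundant Hox RNA of the libraries labelled Atm-/-, with 17.4% of the Hox sum. Hoxc10, which marks hindlimb motor neurons and posterior fat, had 389, 362 and 303 reads labelled Atm-/-, 0, 0 and 3 in WT, and 2, 6 and 2 in Sirt6-/-. Hoxc12 had 88, 100 and 136 reads labelled Atm-/-, 0, 1 and 2 in WT, and 0 in all of Sirt6-/-. The samples labelled Atm-/- stood apart from all others at these genes. Over the summed reads the ratios to WT were 729 for Hoxc11 (95% counting interval 202 to 6027), 319 for Hoxc10 (109 to 1552) and 98.2 for Hoxc12 (33.3 to 479). WT replicate 3 held most or all WT reads of these genes, and without it the fitted log2 fold changes were 12.01 in place of 9.27 (Hoxc11), 11.40 in place of 8.16 (Hoxc10) and 7.32 in place of 6.46 (Hoxc12). The lowest fitted values over the alternative settings of the fit were 7.57, 6.79 and 5.11 for these genes in the same order.

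Towards the anterior end of HoxC the reads grew fewer. In the libraries labelled Atm-/-, Hoxc9 had 45, 63 and 46 reads, Hoxc8 21, 12 and 26, Hoxc6 24, 35 and 22, Hoxc5 23, 14 and 17, and Hoxc4 6, 13 and 19. Mean levels there were 0.864 for Hoxc9 and between 0.186 and 0.490 for the others, and no gene below group 10 was expressed by the level rule. In WT and Sirt6-/- these 5 genes had 0 to 2 reads per sample apart from 6 reads of Hoxc6 in WT replicate 1. The libraries labelled Atm-/- were at least 16.4-fold above WT at Hoxc5, at least 17.9-fold at Hoxc8 and at least 11.5-fold at Hoxc4, which was not tested. Hoxc6 was called higher than in WT (3.54 ± 0.75, adjusted p = 0.000765, edgeR), and without WT replicate 1 the fitted value was 7.70. Its lowest value over the alternative settings of the fit was 2.76.

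At the HoxD cluster WT cells held the middle genes. Hoxd8, a central gene of the trunk, had 1398, 1287 and 1601 reads in WT, 66, 78 and 61 labelled Atm-/-, and 312, 271 and 228 in Sirt6-/-. Hoxd9, which takes part in the skeleton of the forelimb, had 575, 541 and 581 reads in WT, 14, 12 and 10 labelled Atm-/-, and 178, 216 and 189 in Sirt6-/-. WT was highest, Sirt6-/- intermediate and the libraries labelled Atm-/- lowest at both, without overlap. With a mean level of 22.1, Hoxd8 was the most abundant Hox RNA of WT, at 27.8% of the Hox sum. Log2 fold changes against WT were -4.52 ± 0.12 (Hoxd8) and -5.68 ± 0.18 (Hoxd9) labelled Atm-/- and -2.45 ± 0.12 and -1.59 ± 0.12 in Sirt6-/- (adjusted p of at most 1.1e-08, edgeR). Hoxd4 had 287, 245 and 291 reads in WT, 5, 6 and 6 labelled Atm-/-, and 79, 107 and 100 in Sirt6-/-. Hoxd3, which patterns the first vertebrae, had 232, 161 and 208 reads in WT, 0, 2 and 0 labelled Atm-/-, and 14, 14 and 10 in Sirt6-/-. The same order of the genotypes held at these 2 genes, with Hoxd3 lower than in WT by a ratio of 330 over the summed reads of the libraries labelled Atm-/- (95% counting interval 91.1 to 2735) and by log2 -4.02 ± 0.27 in Sirt6-/- (adjusted p = 3.8e-09, edgeR). The former rested on the 2 reads of labelled Atm-/- replicate 2, without which the fitted log2 fold change of Hoxd3 was -10.69 in place of -8.11. The weakest value of this difference over the alternative settings of the fit was -6.33.

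The posterior end of HoxD behaved the other way. Hoxd13, the digit gene whose mutation causes synpolydactyly, had 339, 336 and 285 reads in the libraries labelled Atm-/-, 0, 0 and 2 in WT, and 0 in all of Sirt6-/-. It was the only expressed HoxD gene of the libraries labelled Atm-/- and made up 71.0% of their HoxD level. Its summed reads were 437 times those of WT (95% counting interval 121 to 3610) and at least 305-fold above Sirt6-/-. Both WT reads of Hoxd13 lay in WT replicate 3, and without it the fitted log2 fold change was 11.27 in place of 8.53. Over the alternative settings of the fit the lowest value of Hoxd13 was 6.83. Little RNA came from the genes just before Hoxd13: Hoxd10 had 12, 7 and 15 reads labelled Atm-/- and Hoxd11 18, 17 and 15, and Hoxd12 had 0 reads in every sample. Hoxd10 was higher in WT, with 20, 24 and 19 reads, than in Sirt6-/-, with 0, 2 and 0, a ratio of 32.7 (8.68 to 276). Without Sirt6-/- replicate 2 the fitted log2 fold change of Hoxd10 was -7.43 in place of -4.79, and the weakest value over the alternative settings was -3.14. Hoxd10 of the libraries labelled Atm-/- lay below WT without overlap but was not called (-1.02 ± 0.44, adjusted p = 0.0544, edgeR), though edgeR's exact test called it (0.0165). Hoxd11 was called higher labelled Atm-/- than in WT (3.39 ± 0.81, adjusted p = 0.00175, edgeR), and its fitted value was 7.02 without WT replicate 3, which held all 4 WT reads. Over the alternative settings of the fit the lowest value of Hoxd11 was 2.40.

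The direct comparison of the libraries labelled Atm-/- with Sirt6-/- was read along the clusters. Of the 16 posterior genes 13 were tested, and 12 were higher in the libraries labelled Atm-/-, Hoxd9 being the exception. Over all tested genes 38.0% were higher and 37.8% lower. Of these 13 posterior genes, however, 11 had been under the filter in 1 genotype, so that their direction followed from the filter. Of the 23 genes of groups 1 to 8, 19 were tested, 8 were higher and 11 lower, and 4 had been under the filter in 1 genotype. Within HoxA, Hoxa4 was higher, whereas Hoxa2, Hoxa3, Hoxa5, Hoxa6 and Hoxa7 were lower in the libraries labelled Atm-/- (-0.84 to -2.25), and Hoxa9, Hoxa10, Hoxa11 and Hoxa13 were higher. In HoxC all 8 tested genes were higher, those of groups 5 to 8 included, each of them under the filter in Sirt6-/-. In HoxB, Hoxb2, Hoxb3 and Hoxb4 were lower and Hoxb5 to Hoxb9 higher. The smallest differences did not hold throughout. Hoxa4 (0.60 ± 0.23, adjusted p = 0.0217, edgeR) was lost without labelled Atm-/- replicate 1 (0.0661) or 2 (0.116) or Sirt6-/- replicate 1 (0.0512), and Hoxa6 (-0.94 ± 0.34, adjusted p = 0.0183) without labelled Atm-/- replicate 1 (0.0591) or 2 (0.0623) or Sirt6-/- replicate 3 (0.0893). Hoxb4 (-0.34 ± 0.13, adjusted p = 0.0192, edgeR) was lost without labelled Atm-/- replicate 3 (0.0923) or Sirt6-/- replicate 3 (0.0783). Hoxb5 (0.77 ± 0.34, adjusted p = 0.0458, edgeR) was lost without labelled Atm-/- replicate 2 (0.192) or 3 (0.0778), without any one Sirt6-/- sample (0.0523 to 0.121), with all 9 samples in one fit (0.0781) and with the DESeq2 Wald test (0.0810).

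Long noncoding RNAs that lie within the clusters differed too. Hotair, transcribed from the antisense strand between Hoxc11 and Hoxc12, had 149, 155 and 121 reads in the libraries labelled Atm-/-, 1, 0 and 0 in WT, and 1, 0 and 0 in Sirt6-/-. Hoxa11os, the antisense partner of Hoxa11, had 374, 410 and 292 reads labelled Atm-/-, 2, 0 and 5 in WT, and 0, 5 and 0 in Sirt6-/-. Haglr, next to Hoxd1, had 23, 35 and 30 reads in WT, 0 in all libraries labelled Atm-/-, and 1, 2 and 1 in Sirt6-/-. Hottip, beside Hoxa13, had 3, 9 and 5 reads labelled Atm-/- and 0 elsewhere. Of 15 listed noncoding RNAs 8 were in the data, and 3 were tested between the libraries labelled Atm-/- and WT. Hotair and Hoxa11os were called higher and Haglr lower (adjusted p of at most 1.0e-05, edgeR), beside 34.7% higher and 33.6% lower of all tested genes. Each entered the test only through the group where it was high, so the filter set the direction of these calls. The library protocol keeps no strand, so reads from overlapping sense and antisense exons cannot be told apart: in GENCODE M21, Hoxa11os covers 35.0% of the exon bases of Hoxa11. Among the Hox genes themselves, 2 pairs share exon bases there, Hoxd3 with Hoxd4 (388 bases) and Hoxc5 with Hoxc10 (166 bases), and 6 pairs overlap in their RefSeq gene spans (Hoxa3 with Hoxa4, Hoxa5 and Hoxa6, Hoxb3 with Hoxb4, Hoxd3 with Hoxd4, Hoxd10 with Hoxd11). Reads of these genes may be split between them in a way the counts do not show.

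Genes that flank the clusters were read as well. Next to HoxA, Skap2 had 1078 to 1212 reads in WT, 1148 to 1267 labelled Atm-/- and 1104 to 1307 in Sirt6-/-, and was called in no comparison. Across the 4 lists of flanking genes, 14 genes were tested in each comparison. Between the libraries labelled Atm-/- and WT, 7 were called higher and 4 lower, and all fitted differences lay between -1.16 (Snx10) and 1.26 (Calcoco1). All 5 beside HoxC were higher and all 3 beside HoxD lower. Beside HoxA 1 of 4 was higher and 1 lower, and beside HoxB 1 of 2 was higher. Between Sirt6-/- and WT, 2 were higher and 8 lower, from -3.42 (Snx10) to 2.23 (Calcoco1). All 3 beside HoxD were lower, 2 beside HoxC were higher and 3 lower, 2 of 4 beside HoxA were lower, and none beside HoxB was called. A link of these calls to the Hox genes was not tested. Of all tested genes, 68.4% and 76.6% were called in these comparisons. The homeobox genes Evx1 and Evx2, which close the posterior ends of HoxA and HoxD, had 0 to 2 reads in every sample.

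Of the 9 TALE cofactors, with which Hox proteins bind DNA, 8 were expressed in WT. In the libraries labelled Atm-/- 7 were expressed, and in Sirt6-/- 7. Of 9 tested, 1 was called higher and 5 lower in the libraries labelled Atm-/- than in WT (median log2 -0.58), and 3 higher and 5 lower in Sirt6-/- (median -0.61), beside 68.4% and 76.6% of all tested genes called and a median of 0.02 in both. Meis1, linked to proximal limb identity and leukaemia, had 185, 124 and 176 reads in WT, 1020, 1134 and 1007 labelled Atm-/-, and 568, 618 and 762 in Sirt6-/-, and was called higher than in WT in both (2.57 and 1.95).

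Of 19 Polycomb genes, all tested, 8 were higher and 5 lower in the libraries labelled Atm-/- than in WT (median log2 0.14), and 7 higher and 8 lower in Sirt6-/- (median 0.03). These counts were near the shares of all tested genes called, 68.4% and 76.6%. Cbx7, a reader of the Polycomb histone mark, had 8, 0 and 4 reads in WT, 327, 316 and 289 labelled Atm-/-, and 65, 45 and 67 in Sirt6-/-. Phf19, which guides the PRC2 complex to chromatin, had 88, 83 and 78 reads in WT, 1485, 1238 and 1506 labelled Atm-/-, and 715, 749 and 722 in Sirt6-/-. Both were lowest in WT and highest in the libraries labelled Atm-/-, without overlap. Ezh1, a catalytic subunit of PRC2, had 333 to 462 reads in WT, 430 to 510 labelled Atm-/- and 2251 to 2301 in Sirt6-/-, while its relative Ezh2 had 2720 to 3020, 3889 to 4414 and 1847 to 1910. Of 10 trithorax and demethylase genes 4 were higher and 4 lower in the libraries labelled Atm-/- than in WT, and 6 higher and 3 lower in Sirt6-/-, beside 34.7% higher and 33.6% lower of all genes in the former and 39.2% and 37.4% in the latter.

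Axial and regional regulators also differed, and a link to the Hox differences was not tested. Of 10 listed Cdx, Gdf11 and retinoic acid genes, 8 were tested between the libraries labelled Atm-/- and WT, with 6 higher and 1 lower. Between Sirt6-/- and WT 5 were tested, with 3 higher and 2 lower, beside 68.4% and 76.6% of all tested genes called. Cdx2, which activates posterior Hox genes in the embryo, had 37, 59 and 45 reads in the libraries labelled Atm-/- and 0 in all WT and Sirt6-/- samples. Its mean level labelled Atm-/- was 0.634, so it was not expressed by the level rule. Aldh1a2, which makes retinoic acid, an inducer of anterior Hox genes, had 129, 192 and 161 reads labelled Atm-/- and at most 3 in any other sample. Cyp26b1, which degrades retinoic acid, had 48 to 76 reads in WT, 103 to 122 labelled Atm-/- and 958 to 1002 in Sirt6-/-. Its relative Cyp26a1 had 20, 12 and 11 reads in WT, 52, 39 and 41 labelled Atm-/-, and 0, 0 and 4 in Sirt6-/-. Of the 14 positional markers listed, 11 were tested between the libraries labelled Atm-/- and WT and 8 were called higher and 3 lower, while 3 of 6 tested were higher and 2 lower in Sirt6-/-. The shares of all tested genes were 34.7% higher and 33.6% lower in the former, and 39.2% and 37.4% in the latter. The hindlimb factor Pitx1 had 1221, 1285 and 1128 reads, Tbx4 110, 67 and 161 and the forelimb factor Tbx5 345, 353 and 365 reads in the libraries labelled Atm-/-, with at most 4 reads in any other sample. Markers of both limbs were thus present in the libraries labelled Atm-/-. Whether the same cells held them was not tested. Alx4, a factor of the anterior limb bud and the skull, had 339 to 476 reads in WT, 5 to 28 labelled Atm-/- and 0 to 4 in Sirt6-/-. The head mesenchyme factor Tbx15, which also marks trunk dermis and limb, had 1184 to 1349 reads in WT, 778 to 821 labelled Atm-/- and 7953 to 8787 in Sirt6-/-. In bulk RNA, fewer cells that use a gene and less RNA per cell cannot be told apart.

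Markers of other cell types moved with the genotypes as well, and their part in the Hox differences was not tested. The summed level of 6 neural and glial markers was 2.61 to 3.15 in WT, 33.3 to 35.3 labelled Atm-/- and 48.1 to 51.5 in Sirt6-/-. Most of it in the mutants came from Nes, which many cultured cells express. Tubb3 of the same list had 63, 55 and 59 reads in WT, 329, 460 and 305 labelled Atm-/-, and 959, 965 and 956 in Sirt6-/-. Snap25 had 12, 19 and 16 reads labelled Atm-/- and 0 elsewhere, and the neural crest factor Sox10 had at most 17 reads in any sample. Of the 6 neural and glial markers, 5 were tested between the libraries labelled Atm-/- and WT, with 3 higher and 1 lower. Between Sirt6-/- and WT 3 were tested, with 2 higher and 1 lower, beside 68.4% and 76.6% of all tested genes called. The 7 epithelial markers summed to 13.3 to 16.0 in WT, 28.4 to 31.7 labelled Atm-/- and 10.1 to 12.7 in Sirt6-/-. Epcam had 29 to 55 reads in every sample, whereas Krt18 had 198 to 268 in WT, 891 to 1044 labelled Atm-/- and 148 to 186 in Sirt6-/-. Of 6 tested against WT, 2 were higher and 0 lower labelled Atm-/-, and 0 were higher and 2 lower in Sirt6-/-. Over all tested genes 68.4% and 76.6% were called. The blood, endothelial and muscle lists each summed to at most 3.19 in any sample. Kdr, an endothelial receptor of VEGF, had 98, 135 and 86 reads in WT, 422, 386 and 330 labelled Atm-/-, and 6, 4 and 12 in Sirt6-/-. Cd68, a macrophage marker, had 121, 104 and 93 reads in WT, 98, 102 and 83 labelled Atm-/-, and 47, 38 and 68 in Sirt6-/-. Kdr was higher than in WT in the libraries labelled Atm-/- (1.69) and lower in Sirt6-/- (-3.89), and Cd68 was lower than in WT in Sirt6-/- (-1.11), each called by edgeR. Des, of the muscle list, had 3 to 48 reads and was called lower in Sirt6-/- than in WT (-2.11). The level of the 11 tested fibroblast markers was lower for 8 and higher for 3 in the libraries labelled Atm-/- than in WT, and lower for 6 and higher for 5 in Sirt6-/-, beside the same shares of all genes.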

How the data were processed

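RNA-Seq of 9 MEF samples was analysed, 3 each labelled WT, Atm-/- and Sirt6-/-. The deposited files give for each gene symbol a raw read count, an RPKM value that the authors computed from that count and the listed maximum transcript length. The genome build is mm10 per the submitters' processing notes, and the aligner, counting tool and annotation are not given in the sources used here. The library protocol in the labels selects poly(A) RNA and does not mark strand. Libraries held 32187040 to 33837949 counted reads, and intervals and floors cover counting error only. No 2 samples agreed within counting noise (chi-square per gene 5.11 to 15.6 within a genotype).

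Whole-table counts were compared for each pair of genotypes with the quasi-likelihood test of edgeR 4.0.16 in R 4.3.3 (filterByExpr, TMM scaling, prior count 0.125, two-sided, Benjamini-Hochberg over all genes tested, threshold 0.05). DESeq2 1.42.0 and edgeR's exact test were alternatives, as was a prior count of 2 for the values of single genes. Levels used the listed length and TMM factors over 9 samples. Sums and shares were compared by exact permutation of samples (scipy 1.17.1). On simulated counts with 200 genes changed 2-fold, all 200 were recovered in each comparison, with 11, 12 and 11 false calls among 13213, 13158 and 13400 genes tested (libraries labelled Atm-/- against WT, Sirt6-/- against WT, and labelled Atm-/- against Sirt6-/-). The changed genes were drawn only above a CPM limit, evenly up and down, with a fixed dispersion. They were a far smaller part of all genes than the calls in the data. The recovery therefore cannot speak for Hox genes with few reads or for the scaling of these samples. Per-sample values were given for Hox genes called without overlap at a mean level of at least 1, for those with at most 3 reads in every sample of one genotype and a mean level of at least 1 in another, and for the 5 highest of each genotype. Other reads named were chosen after their values were seen. The genes and lists were chosen with earlier results of these data known. Promoters came from RefSeq (GRCm38.p6), exon overlaps from GENCODE M21. Values of 1 Hox gene and of 1 cofactor are not reported here singly; both were kept in all fits, sums and counts.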

Additional observations from a re-analysis of the deposited data

Results flagged for a closer look

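Of the Hox genes, 4 were called in opposite directions against WT in the libraries labelled Atm-/- and in Sirt6-/-. They were chosen for these calls and for a call in the direct comparison of the 2 groups. The direct values below (edgeR's quasi-likelihood test, Benjamini-Hochberg adjusted p) use the same samples and are no separate test. In every Sirt6-/- sample Hoxa10 and Hoxb9 were under the filter. Hoxa10 and Hoxb9 were higher than in WT in the libraries labelled Atm-/- and lower in Sirt6-/-. The libraries labelled Atm-/- exceeded Sirt6-/- by a log2 fold change of 7.05 ± 0.22 at Hoxa10 (adjusted p = 6.47e-17) and of 5.20 ± 0.35 at Hoxb9 (adjusted p = 1.91e-11). Without Sirt6-/- replicate 1, which held 8 of the 14 Sirt6-/- reads of Hoxa10, the former was 7.67. Hoxa5 and Hoxb3 went the other way, with -1.17 ± 0.17 (adjusted p = 3.32e-06) and -2.18 ± 0.11 (adjusted p = 1.36e-13). The Hoxa5 decrease against WT in the libraries labelled Atm-/- rested on ranges that overlapped. All 3 samples of each genotype lay apart in the direct comparison at these 4 genes, as they did at 78.1% of all tested genes. Groups of 3 samples were not searched for single outlying samples.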

How the results depend on the processing

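Of the fitted values of Hox genes, 493 of 504 kept their direction and side of the threshold between the libraries labelled Atm-/- and WT (4 gained and 7 lost a call), 298 of 312 between Sirt6-/- and WT (7 lost a call and 7 changed sign) and 460 of 476 between the libraries labelled Atm-/- and Sirt6-/- (16 lost a call). The sign changes were at genes that were not called. Hoxb2 in Sirt6-/- against WT was -0.01 with DESeq2 size factors (-0.0056) and the DESeq2 Wald test (-0.0070), -0.0045 with no filter, and -0.107 to 0.0630 when a sample was left out. Hoxa7 ranged from -0.169 to 0.0057 when a sample was left out. With at least a 2-fold change required, 6 in place of 11 genes were called lower in the libraries labelled Atm-/- than in WT, and 19 in place of 20 higher. With posterior genes counted from paralog group 10, the differences of their share in percentage points were 42.8, -11.2 and 54.0 in place of 38.3, -18.3 and 56.5, and without division by length the first was 37.1. Log2 ratios of cluster sums moved without division by length: HoxA 1.15 and 1.17 over WT in the libraries labelled Atm-/- and in Sirt6-/- (from 1.01 and 1.08), HoxB 0.025 over WT and -0.47 against Sirt6-/- in the libraries labelled Atm-/- (from 0.38 and -0.03), HoxC 1.30 and -6.30 over WT and 7.60 between the mutants (from 2.15, -5.94 and 8.09), and HoxD -2.65 over WT and -0.48 against Sirt6-/- in the libraries labelled Atm-/- (from -2.80 and -0.63). With the deposited RPKM, the ratios of the libraries labelled Atm-/- over WT were 1.17 for HoxA, 0.54 for HoxB, 2.31 for HoxC and -2.65 for HoxD. HoxA of Sirt6-/- was 1.16 over WT. The deposited RPKM lacks the TMM factors, which were 0.942 to 0.948 in WT and 1.051 to 1.054 labelled Atm-/-. Other causes of these shifts were not tested. Replicate numbers did not pair the samples, since same-numbered samples correlated at -0.012 to 0.033. With a replicate block 20 Hox genes were called higher and 11 lower in the libraries labelled Atm-/- than in WT, 8 and 9 in Sirt6-/- than in WT, and 19 and 12 between the mutants, where Hoxb5 was lost (0.76, edgeR adjusted p = 0.0816). At most 4 reads per sample limit what can be said of Hoxb1, Hoxb13, Hoxd1 and Hoxd12.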
